A study of Mus musculus with 12 samples.

Results

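The genes described here are 8 that encode proteins of the thick filament and the M-band of skeletal muscle: the myosin-binding proteins Mybpc1, Mybpc2 and Mybph, the myomesins Myom1, Myom2 and Myom3, the obscurin relative Obsl1, and Smpx. They were chosen by gene symbol, or by Ensembl identifier where the symbol cell was blank (Mybph), out of the 30389 genes in the table. All 8 were present and all 8 had a mean of at least 1 CPM (reads scaled by the authors to library size) in both groups. Smpx belongs to the set by its name on the list. Its protein is known from costameres, where fibres attach to their surroundings, and not from the M-band.

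Messenger RNA was sequenced from C57BL/6 mouse muscle in 12 libraries from 6 animals. Vascular anomalies came from 3 animals of genotype VEC-Cre;SB Transposase; onc3, in which Cre recombinase is read from an endothelial (VE-cadherin) promoter together with a transposase (Sleeping Beauty) and the transposon it mobilises, onc3. Normal muscle came from 3 animals that carried SB Transposase; onc3 without Cre. There were 2 libraries per animal. They were 2 pieces of tissue, except that anomaly animal 2 was sampled as 2 lesions. Group means are taken over animals (n = 3 per group). Ages were not given in the sources used here, and the muscle sampled was not named.

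Thick filaments are bundles of myosin that lie in register in the middle of each sarcomere. Myosin-binding protein C decorates them in stripes and tunes how myosin heads meet actin, with separate genes for the slow form (Mybpc1) and the fast form (Mybpc2). In the centre of the sarcomere, myomesins bridge neighbouring filaments to form the M-band, where titin and the obscurins are anchored.

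The sequences upstream of these genes are shown for the slow and fast myosin-binding protein C pair and for the myomesin pair Myom1 and Myom3. RefSeq windows (build GRCm38.p6) from 250 bases before to 50 after the annotated start were found for 7 of the 8 genes. Capitals in the first pair mark the E-box, CANNTG, the letters bound by the myogenic factors of the MyoD family. The windows are printed 5′ to 3′ on the gene's strand, Mybpc1 at chr10:88605123-88605402 (minus strand) and Mybpc2 at chr7:44524640-44524919 (minus strand), from 250 bases before the start to 30 after it.
Mybpc1: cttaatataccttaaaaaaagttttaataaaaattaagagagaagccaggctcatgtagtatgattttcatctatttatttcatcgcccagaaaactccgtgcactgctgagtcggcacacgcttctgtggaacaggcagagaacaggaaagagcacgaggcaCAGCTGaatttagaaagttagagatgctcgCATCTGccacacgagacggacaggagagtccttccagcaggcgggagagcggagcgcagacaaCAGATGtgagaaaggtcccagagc
Mybpc2: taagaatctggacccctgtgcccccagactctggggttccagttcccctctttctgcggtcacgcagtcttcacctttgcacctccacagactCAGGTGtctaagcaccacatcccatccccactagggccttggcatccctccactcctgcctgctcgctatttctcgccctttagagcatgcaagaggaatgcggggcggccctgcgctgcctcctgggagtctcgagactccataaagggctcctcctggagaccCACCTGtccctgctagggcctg

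Mybpc1 held 3 E-boxes and Mybpc2 held 2. At least 1 E-box stood in 6 of the 7 windows, all but that of Smpx, and in 72.3% of all 32544 different promoter windows of the same length. CATTCC, the MCAT element, searched on both strands, stood in Mybpc2 and Mybph and in 14.6% of all windows. TATAAA stood in Mybph and in 13.6% of all windows. The MEF2 consensus, by its letters on both strands, was found in Myom3 and in 3.16% of all windows, and the CArG box in Myom1 and in 1.64%.

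Among the 21 pairs of windows, the longest run of letters in common was between Myom1 and Myom3. It was 13 bases long and occurred in 2 of the 32544 windows, theirs. Capitals mark this run, in Myom1 at chr17:71019307-71019546 (plus strand, 250 to 11 bases before the RefSeq start) and in Myom3 at chr4:135759465-135759744 (plus strand, 250 bases before to 30 after the start). The Myom1 window lies inside the gene as GENCODE draws it, since other transcripts start further upstream.
Myom1: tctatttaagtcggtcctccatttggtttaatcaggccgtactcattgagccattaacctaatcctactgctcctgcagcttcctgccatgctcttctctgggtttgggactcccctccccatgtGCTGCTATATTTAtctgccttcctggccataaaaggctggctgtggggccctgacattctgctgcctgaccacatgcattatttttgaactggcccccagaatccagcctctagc
Myom3: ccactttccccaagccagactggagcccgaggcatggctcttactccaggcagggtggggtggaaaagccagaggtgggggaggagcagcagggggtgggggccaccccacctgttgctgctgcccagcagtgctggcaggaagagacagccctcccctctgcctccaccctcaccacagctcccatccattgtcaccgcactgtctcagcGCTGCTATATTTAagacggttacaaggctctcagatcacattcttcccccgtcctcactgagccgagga

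Counted from the RefSeq start, the run begins at position -125 in Myom1 and at -39 in Myom3. In Myom3 it runs into the MEF2 match, which begins at -35. These matches describe letters only.

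Depth differed between the groups. Anomaly libraries held 254404 to 18476461 recovered reads, and normal libraries held 17380211 to 32155879. The deposited CPM were not scaled to these totals alone. The library size they imply was 1.43 to 2.12 times the recovered reads in the anomalies and 0.71 to 0.80 times in normal muscle. Anomaly values thus stand lower against normal ones than under plain library totals. Piece 1 of anomaly animal 1 stood apart, with 254404 units, where 1 unit weighed 1.85 CPM against at most 0.0719 CPM per read in the other libraries. In that library 40.4% of genes with a value sat at exactly 1 unit, among them Mybph, Myom2, Myom3 and Smpx, so values near 1.85 CPM there carry no precision and results are given with and without it where they change. All 5 endothelial markers were higher in the anomalies, with a summed level of 1462 to 4139 CPM against 210 to 357 CPM in normal muscle, and all 17 fibre reference genes, such as Acta1 and Des, were lower, with 115 to 31753 against 157358 to 188524 CPM. All 5 macrophage markers were higher too (summed level 138 to 1243 against 9.47 to 62.3 CPM), as were 3 of 4 smooth muscle markers (159 to 773 against 44.0 to 101 CPM). Of 5 fibroblast markers 2 were higher, Col1a1 and Col3a1, which made most of the sum in the anomalies (1525 to 5892 against 119 to 561 CPM). Dcn, Lum and Pdgfra did not pass, with differences of -2.32, -0.60 and -0.15 log2 units. The 4 satellite cell and myoblast markers tested were lower, at 0.0530 to 20.8 CPM in sum against 46.3 to 65.5 CPM. The part of these cell types in the results below was not tested. Of the 5 cardiac markers, 3 were tested and Nppa and Myl7 were below the filter. Tnni3 was higher, at 1.41 CPM in the anomalies and 0.253 CPM in normal muscle (limma adjusted p = 0.00992). These levels are near the floor, and in anomaly animal 1 its value was 1 unit (1.85 CPM) in piece 1 and 0.584 CPM in piece 2. Tnnt2 averaged 5.91 and 2.86 CPM and Myh6 6.12 and 5.14 CPM in the anomalies and normal muscle, and neither passed.

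In normal muscle the 8 transcripts took 1.51% to 1.64% of all reads, and in the anomalies 0.00825% to 0.510%. Their order in normal muscle, on the scale of CPM per kilobase of exon, was led by the fast form Mybpc2 at 3318 ± 87.7 (SD over 3 animals). Myom2 followed at 383 ± 27.7, Mybpc1 at 369 ± 114, Mybph at 313 ± 146 and Myom1 at 290 ± 26.4 CPM per kb. Of the 2329 exon bases of Mybph, 1162 overlap a gene on the other strand, so its value per kb is uncertain. Myom2, Mybpc1 and Mybph did not differ from their neighbours beyond their spread, and neither did Mybph and Myom1. Smpx stood at 121 ± 19.0, Obsl1 at 18.4 ± 7.25 and Myom3 at 8.98 ± 4.41 CPM per kb, and the animals of Obsl1 and Myom3 overlapped.

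Of the 8 genes, 5 were lower in the anomalies (limma on log2(CPM + 1) averaged per animal, adjusted p under 0.05): Mybpc2, Mybph, Myom1, Myom2 and Smpx. None was higher, and Mybpc1, Myom3 and Obsl1 did not pass the test. Many genes moved in this comparison: 63.4% of the 14687 genes tested were called, with 31% of all genes lower and 32.4% higher. The same 5 genes had all 6 anomaly libraries below all 6 normal ones, as had 27.6% of all genes tested. None of the 8 had all anomaly libraries above all normal ones, against 28.8% of all genes. The median difference over the 8 was -5.95 on the log2 scale, and over all genes tested it was 0.09. In bulk tissue, fewer muscle fibres in a sample and less RNA per fibre cannot be told apart.

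**Figure D1:**
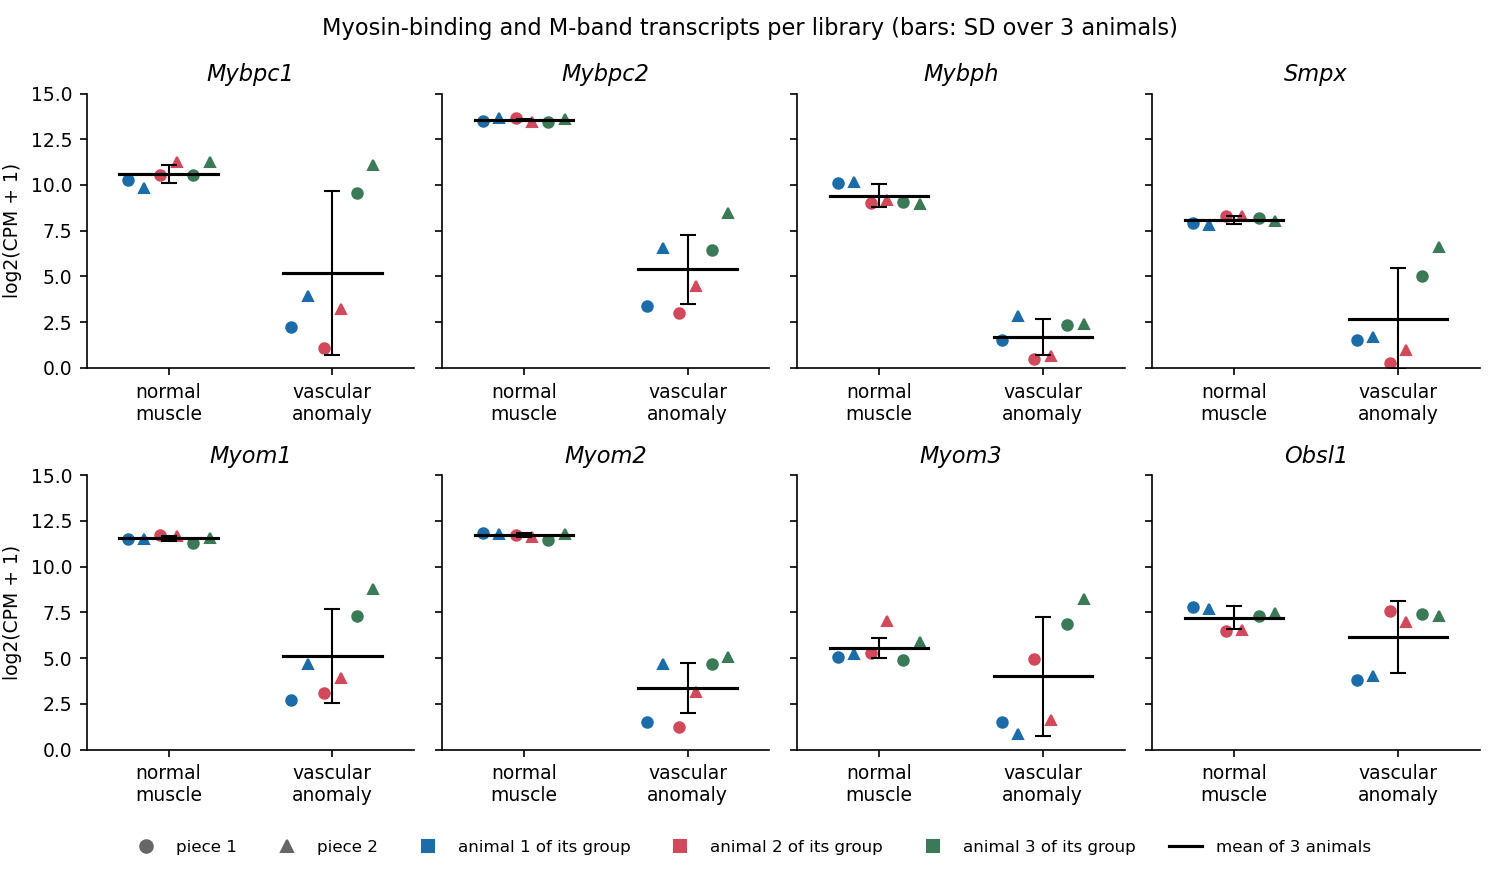
Level of each of the 8 transcripts as log2(CPM + 1) in the 12 libraries, coloured by animal, with circles for piece 1 and triangles for piece 2 and the mean and SD of 3 animals per group in black. Mybpc2, Mybph, Myom1, Myom2 and Smpx show 2 separate groups, whereas in Mybpc1, Myom3 and Obsl1 some anomaly libraries lie within the normal range and others below it, and in Myom3 1 lies above it.

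Mybpc2 (ENSMUSG00000038670, chr7:44501699-44524656) encodes the fast myosin-binding protein C. In the anomalies its level was 9.27 and 93.9 CPM in animal 1, 7.10 and 21.1 CPM in animal 2, and 85.1 and 352 CPM in animal 3. In normal muscle the 6 libraries lay between 10978 and 12808 CPM, with a median of 12049 CPM. The groups lay far apart, and normal animals were alike, with an SD of 0.04 on the log2 scale. The difference was -8.16 ± 0.92 log2 units (SE; limma adjusted p = 7.39e-04).

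Mybpc1 (ENSMUSG00000020061, chr10:88518279-88605152), the slow form, split the anomalies. Animal 1 had 3.71 and 14.2 CPM and animal 2 had 1.11 and 8.37 CPM, but animal 3 had 764 and 2176 CPM. Normal muscle ranged from 912 to 2465 CPM, with a median of 1498 CPM. Piece 2 of anomaly animal 3 lay inside the normal range, piece 1 just below it, and the other 4 libraries far below. The difference over all animals was -5.43 ± 2.07 log2 units (limma adjusted p = 0.0578), and without anomaly animal 3 it was -8.00 (limma adjusted p = 7.40e-05). It was also called with all 12 libraries and the animal as a random block (limma adjusted p = 0.00674, and 0.00741 with the piece number as a block too), with a trimmed mean of M-values (0.0444) and with piece 1 alone (0.0359), and in no other alternative (limma adjusted p up to 0.167).

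Mybph (ENSMUSG00000042451, chr1:134193448-134201232) encodes myosin-binding protein H, a shorter relative of the C proteins. It was low in every anomaly library, with 1.85 and 6.20 CPM in animal 1, 0.424 and 0.581 CPM in animal 2, and 4.04 and 4.34 CPM in animal 3. Normal muscle held 498 to 1128 CPM, with a median of 556 CPM, and normal animal 1 was the highest with 1111 and 1128 CPM. Animal 3, which held Mybpc1 near the normal level, had Mybph within the range of animal 1. The difference was -7.70 ± 0.55 log2 units (limma adjusted p = 2.06e-04). Exons of Mybph share 1162 bases with Adora1 on the other strand, and the libraries were unstranded. Adora1 itself was at most 13.0 CPM in any library, so the level of Mybph in normal muscle was far above that of its neighbour, and its values of a few CPM in the anomalies are uncertain.

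The 3 myomesins did not move alike. Myom2 (ENSMUSG00000031461, chr8:15057653-15133541) encodes M-protein, the myomesin of fast fibres. It was at 1.85 and 24.5 CPM in anomaly animal 1, 1.38 and 7.85 CPM in animal 2, and 24.9 and 32.3 CPM in animal 3. Normal libraries lay between 2799 and 3730 CPM, with a median of 3525 CPM. All anomaly animals were low, with no library near the normal range. The difference, -8.33 ± 0.65 log2 units (limma adjusted p = 2.61e-04), lay within 1 SE of that of Mybpc2.

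Myom1 (ENSMUSG00000024049, chr17:71002633-71126856) encodes the myomesin found in all striated muscle. Its level was 5.56 and 25.1 CPM in anomaly animal 1, 7.63 and 14.2 CPM in animal 2, and 160 and 441 CPM in animal 3. Normal muscle ranged from 2552 to 3383 CPM, with a median of 3013 CPM. Animal 3 kept more than the others but stayed below every normal library. The difference was -6.46 ± 1.20 log2 units (limma adjusted p = 0.00425). Its exons share 207 bases with Myl12a on the other strand, a gene at 222 to 374 CPM in the anomalies and 155 to 221 CPM in normal muscle, so the lowest Myom1 values may hold reads of either gene.

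Myom3 (ENSMUSG00000037139, chr4:135759715-135815564) encodes the myomesin known from slow and intermediate fibres. Anomaly animal 1 had 1.85 and 0.809 CPM, animal 2 had 30.2 and 2.09 CPM, and animal 3 had 117 and 298 CPM. Normal libraries held 28.4 to 131 CPM, with a median of 37.2 CPM, the highest in piece 2 of normal animal 2. Animal 3 was thus near or above the top of the normal range, with piece 2 above every normal library and piece 1 above 5 of 6, while animal 1 was below every normal library. The difference over all animals was -1.56 ± 1.51 log2 units (limma adjusted p = 0.390), and it was -3.33 without anomaly animal 3 (limma adjusted p = 0.00685). The 2 lesions of animal 2 differed widely from each other, one at the lower edge of the normal range and one below it.

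Obsl1 (ENSMUSG00000026211, chr1:75479310-75506452) encodes obscurin-like 1, which binds titin and myomesin at the M-band and, with CUL7 and CCDC8, also forms the 3M complex of other cell types. Anomaly animal 1 had 13.0 and 15.2 CPM, animal 2 had 188 and 127 CPM, and animal 3 had 170 and 156 CPM. Normal muscle held 87.8 to 222 CPM, with a median of 166 CPM. Animal 1 was low, and both libraries of animals 2 and 3 lay inside the normal range. The difference was -1.03 ± 0.96 log2 units (limma adjusted p = 0.371), and it was 0.11 without anomaly animal 1. When libraries were scaled by their plain totals it was also 0.11, a scaling that moved the median of all genes up by 0.88. Relative to the median of all genes, Obsl1 lay at -0.86 under plain totals and at -1.12 under the deposited scaling.

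Smpx (ENSMUSG00000041476, chrX:157698910-157752591) encodes the small muscle protein, X-linked, a stretch-responsive fibre protein. It had 1.85 and 2.20 CPM in anomaly animal 1, 0.212 and 0.988 CPM in animal 2, and 32.0 and 96.8 CPM in animal 3. Normal muscle ranged from 222 to 318 CPM, with a median of 277 CPM. As with Myom1, animal 3 was the highest anomaly animal and remained below every normal library. The difference was -5.41 ± 1.28 log2 units (limma adjusted p = 0.0108).

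**Figure D2:**
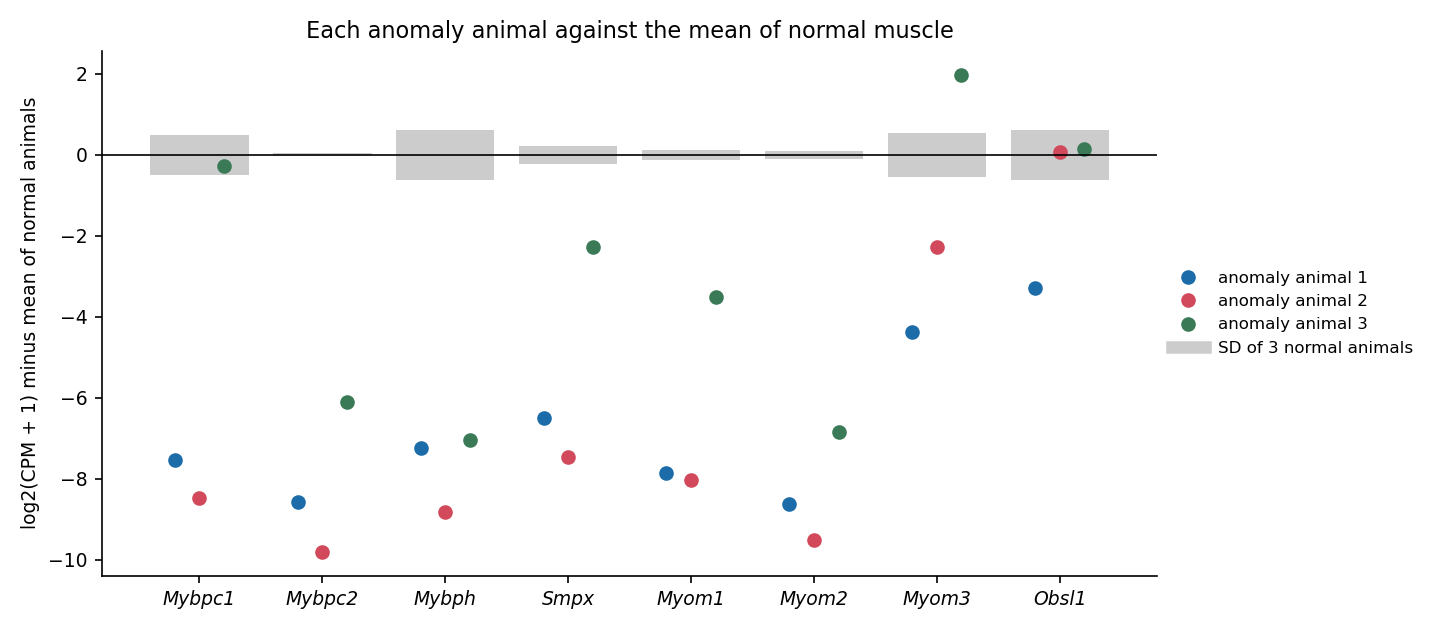
Mean log2(CPM + 1) of each anomaly animal minus the mean of the 3 normal animals, for the 8 genes, with the SD of the normal animals as a grey band. Anomaly animal 3 (green) lies within the band for Mybpc1, above it for Myom3 and far below it for Mybpc2, Mybph and Myom2, and animal 1 (blue) is the only one below the band for Obsl1.

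The anomaly animals differed among themselves in 5 of the 8 genes (limma F test on 6 libraries, adjusted p under 0.05), where 12.8% of all genes tested were called. These were Obsl1 (adjusted p = 0.00205), Mybpc1 (0.00258), Smpx (0.00310), Myom1 (0.00913) and Myom3 (0.0117). For Mybph, Mybpc2 and Myom2 the adjusted p was 0.0615, 0.112 and 0.215. The pieces of an animal are its repeats here, so these values measure only the spread between pieces. Without the shallow piece of animal 1, which leaves that animal 1 library assumed to vary like the others, no gene was called by limma's F test; 4473 of 14687 genes, the 8 described here among them, had an unadjusted p under 0.05. Over the 8 genes, the median difference from normal muscle was -7.38 log2 units in animal 1, -8.25 in animal 2 and -2.88 in animal 3.

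Within animal 3, piece 2 was higher than piece 1 for 7 of the 8 genes and lower for Obsl1. The gap was 2.04 log2 units for Mybpc2, 1.57 for Smpx and 1.51 for Mybpc1, and 0.08 for Mybph. The median of the fibre reference list moved the same way, from 8.14 to 9.58 log2 units. In animal 1 it was 2.71 and 4.98 and in animal 2 it was 1.80 and 3.29, against 11.60 to 12.13 in normal libraries. What part fibre content had in the differences among pieces was not tested.

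Set against that reference, the members of the family took different positions. When each animal's median of 17 fibre genes was subtracted from every gene, the 8 had a median difference of 0.85 log2 units, and all genes tested had one of 6.88. Myom3 (5.24 ± 2.15, limma adjusted p = 0.0173) and Obsl1 (5.77 ± 1.94, limma adjusted p = 0.00488) were higher relative to the fibre genes, as were 93.6% of all genes, and 0.00681% of all genes were lower. For the other 6 the difference ranged from -1.54 ± 1.82 for Myom2 to 1.38 ± 2.10 for Smpx and did not pass the test, which does not show that they moved in step with the fibre genes. The Myom3 call was lost on leaving out any 1 normal animal (limma adjusted p = 0.0654 to 0.103) or with piece 2 alone (3.48, limma adjusted p = 0.108), and the Obsl1 call on leaving out normal animal 2 (limma adjusted p = 0.0525).

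**Figure D3:**
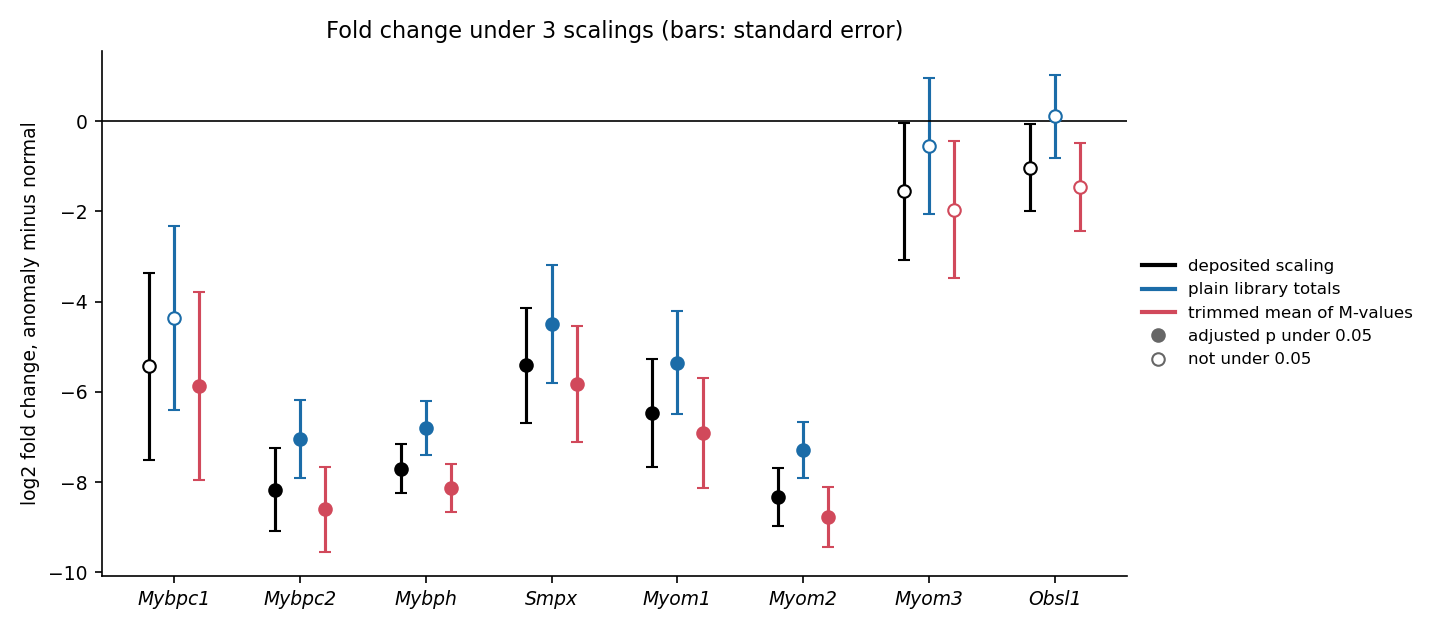
Log2 fold change of each gene, anomaly minus normal, with its SE, under the deposited scaling and after rescaling by plain library totals or by a trimmed mean of M-values. Filled points had an adjusted p under 0.05. Mybpc2, Mybph, Smpx, Myom1 and Myom2 are filled and below 0 under all 3, whereas Obsl1 changes sign under plain totals.

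The balance of slow and fast forms was compared by ratios within an animal, where both genes share the library's scale. The log2 ratio of Mybpc1 to Mybpc2 per kb was -2.21, -1.91 and 2.56 in anomaly animals 1 to 3 and -3.86, -2.96 and -2.95 in normal animals. The slow form was thus a larger share in the mean of each anomaly animal than in any normal animal, and in animal 3 it exceeded the fast form. For animal 1 this rests on the shallow library: its piece 2 alone gave -2.96, below normal animals 2 and 3, so the animals then overlapped. The mean ratio was 2.73 log2 units higher in the anomalies (two-sided exact permutation p = 0.1, the smallest that 3 against 3 animals can give, and 0.133 after adjustment over 4 ratios). It was 1.19 without anomaly animal 3.

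Among the myomesins, the log2 ratio of Myom1 to Myom2 was 0.38, 1.08 and 2.94 in anomaly animals 1 to 3 and -0.57, -0.22 and -0.42 in normal animals. The difference was 1.87 (exact permutation p = 0.1, adjusted 0.133) and 1.13 without anomaly animal 3. The ratio of Myom3 to Myom2 was -1.36, 1.65 and 3.23 in anomaly animals and -6.15, -4.97 and -5.69 in normal animals. It showed the widest shift, 6.77 log2 units (exact permutation p = 0.1, adjusted 0.133), and was 5.75 without anomaly animal 3. For both ratios no anomaly animal overlapped a normal one, though piece 2 of anomaly animal 1 had a log2 ratio of Myom1 to Myom2 of -0.21, below a normal library at -0.17. In that piece Myom3 was at 0.809 CPM, so its ratio of Myom3 to Myom2 depends on the 1 CPM added.

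Mybph and Mybpc2 kept no such order. Their log2 ratio was -2.15, -2.52 and -4.44 in anomaly animals and -2.82, -3.83 and -3.85 in normal animals, a difference of 0.46 (exact permutation p = 0.6, adjusted 0.6) whose sign changed with the pseudocount. In piece 1 of anomaly animal 1 these ratios rest on 1 to 5 units. With that animal represented by piece 2 alone, the 4 differences were 2.48 for Mybpc1 to Mybpc2, 1.67 for Myom1 to Myom2, 6.14 for Myom3 to Myom2 and 0.15 for Mybph to Mybpc2.

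**Figure D4:**
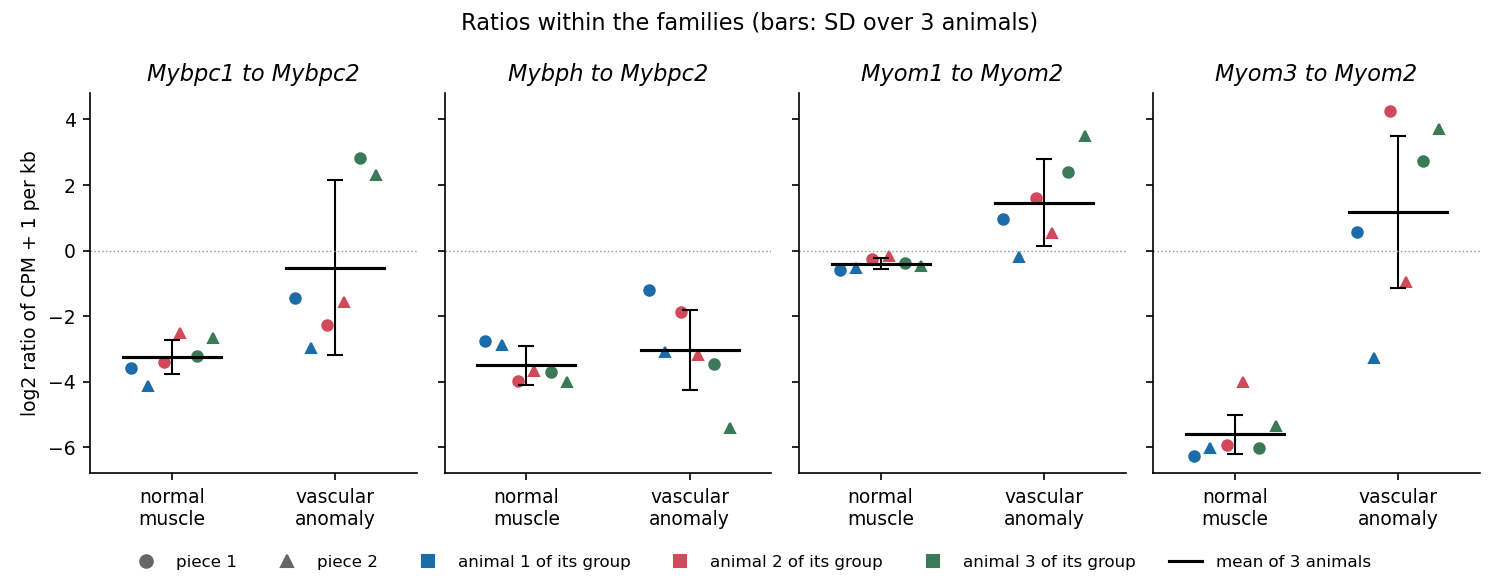
Log2 ratio of CPM + 1 per kb for 4 pairs of genes in the 12 libraries, coloured by animal, with the mean and SD of 3 animals per group in black. The ratio of Myom3 to Myom2 lies between -6.26 and -4.02 in normal libraries and between -3.26 and 4.27 in anomaly libraries, and the libraries of the other 3 ratios overlap between the groups. The lowest anomaly value, piece 2 of animal 1, has Myom3 at 0.809 CPM. The 1 CPM added raises its ratio, and the gap to the normal libraries rests on that.

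The myosin heavy chains, to which some of these proteins bind, also divided the anomaly animals. Of 8 heavy chain genes tested, 3 were lower, none was higher and 5 did not pass. The fast chain Myh4 averaged 226 ± 186 CPM in the anomalies and 112807 ± 24476 CPM in normal muscle (-9.53 ± 0.93 log2 units, limma adjusted p = 4.81e-04). Myh1, another fast chain, was lower, with a difference of -6.24 ± 1.90 (limma adjusted p = 0.0271), as was Myh7b with -1.44 ± 0.52 (limma adjusted p = 0.0488).

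The 5 heavy chains that did not pass had their highest anomaly level in animal 3. Myh2, the chain of fast oxidative fibres, was at 2479 and 7612 CPM in animal 3, at most 26.8 CPM in the other anomaly libraries and 1335 to 3318 CPM in normal muscle. Myh8, the perinatal chain, was at 823 and 4526 CPM in animal 3 and at most 12.3 CPM in every other library. Myh3, the embryonic chain, averaged 72.8 CPM in animal 3, 1.19 in animal 1 and 0.0291 in animal 2, against 6.72 ± 2.34 CPM in normal muscle. The slow chain Myh7 averaged 163 CPM in animal 3 and at most 1.65 CPM in the others, against 227 ± 356 CPM in normal muscle, and the alpha chain Myh6 averaged 6.12 ± 9.70 and 5.14 ± 2.76 CPM in the groups. The fast chain Myh1, called lower, was also highest in animal 3 among the anomalies, at 1027 and 2479 CPM. It was at most 38.6 CPM in the other anomaly libraries and 3201 to 6328 CPM in normal muscle. Animal 3 thus held Mybpc1 and Myom3 beside Myh2, Myh8 and Myh3, and part of the normal level of Myh1. Mybpc2, Mybph and Myom2 were low in it beside Myh4.

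Fast and slow fibre markers differed in how many were called, but the median of each list was highest in animal 3 among the anomalies. All 12 fast fibre genes were lower, with a median difference of -7.31 log2 units. The median fast marker level was 8.25 and 9.56 log2 units in the 2 pieces of anomaly animal 3. It was 3.16 to 6.73 in the other anomaly libraries and 13.67 to 14.21 in normal muscle. Of 10 slow fibre genes, 1 was higher (Tpm3), 1 was lower (Myl3) and 8 did not pass, with a median of -1.36. Tpm3 averaged 169, 146 and 190 CPM in anomaly animals 1 to 3 and so did not follow the slow list there. The median slow marker level in anomaly animal 3 was 6.24 and 6.80 log2 units in its 2 pieces, and 1.51 to 1.57 in the other anomaly libraries. In normal muscle it was 3.88 to 5.07 in 5 libraries and 8.21 in piece 2 of animal 2, the library with the most Myom3 and the most Mybpc1. The part of fibre type in these levels was not tested.

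The partners of these proteins in the thick filament and the M-band were nearly all lower. Of 22 genes on that list, 20 were tested, 19 were lower and 1 was higher, with a median difference of -5.13 log2 units. Mybpc3, the cardiac myosin-binding protein C, was below the filter, and Mybphl was not analysed here. Igfn1 (-4.53 ± 0.57), Lrrc39 (-4.44 ± 0.62), whose protein myomasp binds at the M-band, and Ank1 (-6.32 ± 0.89), a partner of obscurin, had the smallest p among the lower genes (limma adjusted p = 0.00105 to 0.00158). The exception was Fhl2, a LIM-domain protein that binds titin and is also made in other cells, at 43.7 ± 53.9 CPM in the anomalies and 1.47 ± 1.15 CPM in normal muscle (3.59 ± 0.85 log2 units, limma adjusted p = 0.0109). Fhl2 was 106 CPM in anomaly animal 1 and 10.7 and 14.6 CPM in animals 2 and 3.

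Of the 4 genes listed for the 3M complex and its relatives, outside the sarcomere, 3 were higher and 1 was lower. Cul7, the scaffold of the 3M ubiquitin ligase, was higher by 3.59 ± 0.44 log2 units (limma adjusted p = 9.69e-04), at 105 ± 51.0 CPM in the anomalies and 7.03 ± 2.69 CPM in normal muscle. Ccdc8, another component, was higher by 2.63 ± 0.48 (limma adjusted p = 0.00400), and Fbxw8, an F-box protein of CUL7, by 0.45 ± 0.15 (limma adjusted p = 0.0349). Cul9, a related cullin, was lower, with a difference of -1.93 ± 0.31 (limma adjusted p = 0.00249).

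Across the 6 anomaly libraries, the genes whose log2 levels ran most like each member were named out of 8669 with a mean of at least 10 CPM. These correlations share libraries of unequal depth and rest on 3 animals, and are given as a description. Mybpc1 ran with Actn2, an actinin of the Z-disc (r = 0.999), and Klhl41 (r = 0.998), and Mybpc2 with Ampd1, the muscle AMP deaminase (r = 0.996), and Actn3, the fast fibre actinin (r = 0.994). Myom1 ran with Cap2 and Pdlim3 (r = 0.998 for each), Smpx with the actin nucleator Lmod3 (r = 0.999), and Myom3 with Wnk2 (r = 0.994) and Camta1 (r = 0.991). Mybph ran with Slc7a5 and Nufip1 (r = 0.981 for each), Myom2 with Abhd17c and Tgfb3 (r = 0.984 for each), and Obsl1 with Usp49 and Dlk1 (r = 0.997 for each).

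Some of these genes differed from the member they ran with in the comparison with normal muscle. Slc7a5, an amino acid transporter, was higher in the anomalies by 3.52 ± 0.56 log2 units (limma adjusted p = 0.00238), where Mybph was lower. Dlk1, a non-canonical Notch ligand, was at 2.10 CPM in anomaly animal 1, 53.0 in animal 2 and 44.4 in animal 3, against 0.949 ± 0.0729 CPM in normal muscle (3.31 ± 1.06, limma adjusted p = 0.0329). Within the set, Mybpc1, Myom1 and Smpx ran closest, with r of 0.985 between Mybpc1 and Myom1 and 0.986 between Mybpc1 and Smpx. Obsl1 ran least with the others, from -0.34 with Mybph to 0.74 with Myom3.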

How the data were processed

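Per the labels' protocols, total RNA from snap-frozen tissue was made into unstranded poly-A libraries from 1 ug of RNA. STAR, limma and the build mm10 (GRCm38) are named per the submitters' processing notes, and versions were not given in the sources used here. The authors deposited log2 CPM values of 30389 genes in 12 libraries with a floor of -6.707. Removing the floor gave CPM, and 100% of values were whole multiples of 1 read within 0.01. The design allowed for counts or normalised values, and limma 3.58.1 (R 4.3.3) was used, on log2(CPM + 1) averaged per animal. A gene was tested if either group averaged 1 CPM or more (14687 genes), with trended variance and Benjamini-Hochberg adjustment at 0.05. Fold changes of low genes are understated on this scale. The steps were tested on simulated data. The fit was repeated after subtracting each animal's fibre reference. Ratios were compared by exact permutation over animals. Gene models were GENCODE release M21. The 8 genes and all lists were chosen with earlier results of these data known. Genes named were the 8, the 3 with the smallest p in each direction and those not called on the partner and heavy chain lists, the 3M list, and the 2 most like each of the 8, of which 1 is not reported here. Fibre and cell marker genes named as examples were chosen after their values were seen.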

Additional observations from a re-analysis of the deposited data

How the results depend on the processing

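Mybpc2, Mybph, Myom1, Myom2 and Smpx were lower and called in all 19 alternatives run for them (other scalings, pseudocounts, filters, pieces, units of the fit and each animal left out). Plain library totals gave 8962 genes higher and 1850 lower, where the deposited scaling gave 4765 and 4553 and a trimmed mean of M-values 3743 and 6006. Mybpc1 was called in 5 of 19, Myom3 in 1 and Obsl1 in none. Obsl1 was 0.11 with plain totals, and ran from -1.61 to 0.11 on leaving out 1 animal. Without a single animal, 5 to 7 members were lower, and 16 to 19 partners. With reads summed per animal and voom, 0 partners were called higher, Fhl2 being the exception that was lost. The cause of these changes was not tested.

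Piece numbers did not pair the samples: the 9 correlations between pieces across groups ran from -0.11 to 0.15. With the animal as a random block and the piece number as a replicate block, 5045 genes were higher and 4748 lower, 6 members were lower, and Mybpc1 was called (-5.43, limma adjusted p = 0.00741); without the replicate block its adjusted p was 0.00674, and with reads summed per animal and voom it was 0.144.

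Relative to the fibre genes, 13745 genes and 2 members were called. The counts were 29454 genes without a filter and 9024 with voom. Leaving out 1 animal gave 7698 to 14823 genes and 0 to 3 members. Piece 2 alone gave 1 member, Myom3 being lost. Mybph turned to 0.21 with the fast fibre list as reference. On leaving out 1 animal, Mybph ran from -1.76 to 0.65 (above 0 without anomaly animal 3) and Myom1 from -0.15 (without anomaly animal 2) to 0.74. Among anomaly animals, leaving out the shallow library left 0 genes and 0 members called by limma's F test (4473 genes at an unadjusted p under 0.05), against 1875 and 5. The ratio of Mybph to Mybpc2 turned to -0.13 with a pseudocount of 0.1 and to -0.38 with piece 2 alone.

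Levels under about 2 CPM in piece 1 of anomaly animal 1 are at the weight of 1 unit. With 3 animals per group, p-values rest on 6 animals.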

Other observations

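The amount of these transcripts per myosin heavy chain transcript was computed after the levels had been seen, as the sum per kb of the family over the sum per kb of 6 heavy chain genes (Myh1, Myh2, Myh3, Myh4, Myh7 and Myh8). For Mybpc1 plus Mybpc2 it was 24.7 per 100 heavy chain transcripts in normal animal 3, 16.8 in animal 1 and 16.5 in animal 2, and it was 20.8, 23.3 and 30.7 in anomaly animals 1 to 3. The libraries overlapped, from 16.1 to 27.6 in normal muscle and from 20.4 to 31.2 in the anomalies. The heavy chain sum itself was 10.5 to 1909 CPM per kb in the anomalies and 12205 to 24029 CPM per kb in normal muscle. For the 3 myomesins together it was 2.99 to 4.63 per 100 in normal libraries and 3.71 to 8.64 in 5 anomaly libraries. Lesion 1 of anomaly animal 2 stood at 55.9 per 100, with 570 reads of Myom3 beside 144 of Myom1 and 26 of Myom2. No test was made of these values.

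The 2 lesions of anomaly animal 2 differed in Myom3, at 30.2 and 2.09 CPM, in the direction opposite to Mybpc1 (1.11 and 8.37 CPM), Mybpc2 (7.10 and 21.1 CPM) and Myom2 (1.38 and 7.85 CPM).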
